A study of Schizosaccharomyces pombe with 4 samples.

Results

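XUTs that face only the 3′ end of a gene were examined in fission yeast. XUTs (Xrn1-sensitive unstable transcripts) are long non-coding RNAs that accumulate when the cytoplasmic 5′-3′ exonuclease, named Exo2 in *Schizosaccharomyces pombe*, is lost. A XUT was kept where at least 50 nt of it faced an annotated gene and, taking the gene of largest overlap, covered the last nt of that gene but not its first. The rule used positions only and found 107 of the 1638 XUTs, each paired with a different gene. Of the other XUTs, 344 covered the start of their opposite gene, 754 lay within its body, and 433 had no opposite gene by this rule.

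NET-Seq gave 2 libraries of nascent RNA (IP) and 2 of total RNA (input) from 1 strain, YAM2507, in which *exo2* is deleted and Rpb3, a subunit of RNA polymerase II, carries a Flag tag. IP libraries hold RNA purified with Flag-tagged polymerase, and input libraries come from the same 2 biological samples without that purification. Cells were growing exponentially, all 4 libraries carry the deletion and the tag, and the wild type was not analysed here. The deleted gene itself had 106 and 202 reads in IP replicates 1 and 2 and 51 and 48 reads in input replicates 1 and 2. Its 3987 coding nt held 57 and 109 of the IP reads and 31 and 27 of the input reads, and how much of it was removed is not given in the sources used here.

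Antisense transcripts of this kind start beyond the 3′ end of a gene, run into it and stop before its start. In a compact yeast genome the space beyond a 3′ end also holds the promoter of a neighbour, or the terminator of a gene that points the other way. Nascent RNA reports where polymerase is transcribing, and total RNA reports what accumulates. A short stable RNA such as a tRNA or a small nucleolar RNA (snoRNA) can be abundant in total RNA. A XUT whose annotation includes one counts its reads too.

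The 107 XUTs lay on chromosome I (50), chromosome II (33) and chromosome III (24). Their median length was 1256 nt (220 to 5308), against 530 nt for all other XUTs. They overlapped the paired gene by a median of 950 nt (54 to 3634), and 45 of them covered 50% or more of it. The members nearest the limit were XUT0133, opposite the amino acid permease gene SPCPB1C11.02 by 54 nt, and XUT0426, opposite *rpn1301* by 59 nt. XUT1263 (46 nt) and XUT0514 (29 nt) fell just short. At the other edge, XUT0194 ended 1 nt before it would have covered the first nt of *cdt1*, which encodes a replication licensing factor, and XUT0527 ended 23 nt short of the first nt of SPAC10F6.15. A second opposite gene was overlapped by 50 nt or more in 17 of the 107.

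Sequence before the XUT start is shown for the few members whose 100 bases upstream held a promoter element and whose values are described below. The element TATAAA, the TATA box, was found on the XUT strand in 16 of 107 XUTs, against 8.94% of other XUTs and 12.6% of all genes. The element CAGTCACA, known as the HomolD box and found in promoters of fission yeast ribosomal protein genes, was searched on both strands and found in 3 of 107 (2.80%), against 0.460% of other XUTs and 1.54% of all genes. Each line gives 30 bases from the RefSeq genome (ASM294v3), 5′ to 3′ on the XUT strand, with the element in capitals.
XUT0394, chrII:3631327-3631356 (− strand), 42 bases between element and start: gtttgcaattcaTATAAAgttccaacagta
XUT0527, chrI:1237486-1237515 (− strand), 43 bases between element and start: acagttctaatgTATAAAagtaaatatggt
XUT0712, chrI:4238962-4238991 (− strand), 51 bases between element and start: aaaataaatataTATAAAtgattaattatt
XUT0886, chrIII:1525399-1525428 (+ strand), 49 bases between element and start: aattctacccacTATAAAatctccctttct
XUT0011, chrIII:39336-39365 (− strand), 43 bases between element and start: tcttaatcctcgCAGTCACAaatttattta
XUT1380, chrI:1512424-1512453 (+ strand), 83 bases between element and start: ctacaggagCAGTCACAtaaaaaccctacc
XUT1385, chrI:1619411-1619440 (+ strand), 19 bases between element and start: ttaggtctatgtCAGTCACAcacacaattg

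These matches describe letters in a window and were not tested as sites. XUT1385, opposite *vas2*, had 8 and 8 reads in the IP and 4 and 3 in the input. XUT1380 is the only one of the 3 with a CAGTCACA whose neighbour beyond the 3′ end is a ribosomal protein gene, *rps2202*, and its start lies 117 nt from the start of that gene on the other strand. The last 50 bases of the paired genes held AATAAA, a polyadenylation signal, in 17 of 107 (15.9%), against 16.4% of all genes. A run of TTTTTT was found there in 14 of 107 (13.1%), against 612 of 5118 genes. The 2 examples shown are the ends of genes whose XUTs are described below.
gid5, chrI:4124699-4124728 (+ strand): tttatcaaaacgAATAAAataagtattatg
SPBC24C6.03, chrII:2324839-2324868 (+ strand): acttccctttgaAATAAAtcaaataatacg

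TTAAAC, a motif bound by Mmi1, which directs meiotic RNAs to decay in this yeast, was searched on the XUT strand and was present in 60 of 107 XUTs (56.1%), against 26.1% of other XUTs. Since the 107 are longer, the rate per kb is the closer comparison, at 0.645 per kb against 0.444 per kb. Their share of A or T was 65.2%, against 63.8% in other XUTs.

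Most of these XUTs had the same arrangement of genes beyond the 3′ end of the paired gene. The next gene after the paired gene pointed the same way as it (tandem) in 94 of 107 cases (87.9%, 95% Wilson interval 80.3 to 92.8%). It pointed towards the paired gene (convergent), and so the same way as the XUT, in the remaining 13. The next gene was tandem for 54.4% of XUTs over a start, 54.0% of XUTs in a body and 2413 of 5113 genes (47.2%). The arrangement was looked at after the positions had been seen and was not tested. Only 1 of the 107 shared nt with a gene on its own strand, against 10.3% of other XUTs. How far the position rule and the annotation of XUTs fix the tandem share was not tested. In the tandem cases the next gene lies on the opposite strand to the XUT, and 20 of the 94 XUTs started inside it. With starts inside it counted as negative, the median from XUT start to next gene start was 161.5 nt. Within 200 nt of that gene start, on either side, lay the starts of 39 of the 94. The intergenic space had a median of 406.5 nt, and 31 of the 74 XUTs that started within it were nearer to the next gene than to the paired gene.

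**Figure D1:**
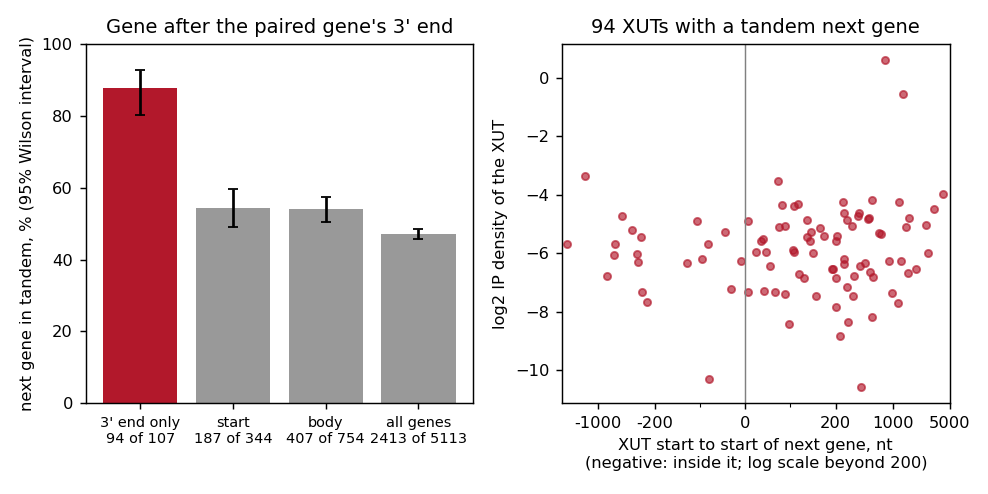
Left, the share (%) of XUTs, or of all genes, whose next gene after the paired 3′ end is tandem, with 95% Wilson intervals; the 107 XUTs opposite a 3′ end stand at 87.9%, against 47.2% of all genes. Right, log2 IP density of the 94 XUTs with a tandem neighbour against the distance (nt) from XUT start to the start of that gene, 1 point per XUT and 20 of them lie left of 0, inside that gene.

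Many of the 107 overlapped annotated non-coding genes. On the same strand, 65 (60.7%) shared nt, of any number, with an annotated ncRNA gene, against 33.7% of other XUTs, 12 with a non-coding unit of the table's other list and 1 with a protein-coding gene, while 27 shared nothing annotated in the table. There were 3 tRNA genes, shared by XUT0133 (SPCTRNAGLN.06), XUT0245 (SPBTRNAARG.05) and XUT0426 (SPBTRNAASN.04). A snoRNA gene, SPNCRNA.1709 (chromosome II, 1676220 to 1676335 on the + strand in the RefSeq annotation), shares 114 nt with XUT1069 although the table lists no feature there. These 4 of 107 XUTs are pointed out where they are described below. Unless stated, the medians, correlations and counts include them. Of the other XUTs, 11 of 1531 shared such a gene.

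Depth was low. The libraries held 3338808 and 6962801 reads over annotated features in the IP and 10172688 and 9114952 reads in the input, of which tRNA genes took 7.18% and 6.80% in the IP and 73.9% and 75% in the input. The median XUT of the 107 had 19 and 48 reads in IP replicates 1 and 2, and 9 and 8 reads in input replicates 1 and 2. At least 10 reads were found in both IP libraries for 78 of 107 and in both inputs for 39. No read in either input was found for 4 of them, XUT0726, XUT0979, XUT1412 and XUT1442, and these had 0 to 4 reads in an IP library, so no fold is given for them.

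The 107 had higher densities than other XUTs. Level is given as log2 density (normalized reads per nt plus 0.0000744, the smallest positive density), averaged over replicates. The median was −5.95 in the IP and −8.87 in the input, 1.02 ± 0.13 above the median of all other XUTs in the IP (SD of the 2 replicates, 0.98 and 1.16) and 1.29 above in the input, where the replicates taken singly gave 1.12 and 1.08. In the IP the medians were −6.77 for XUTs over a start, −7.14 for those in a body and −6.95 for those without an opposite gene, and −3.55 for all genes. In input replicates 1 and 2, 26.4% and 31.7% of other XUTs had 0 reads, against 8.41% of the 107 in each. Such XUTs take the floor value set by the added density. Leaving out XUTs with fewer than 10 reads in all took the difference to 0.63 in the IP and 0.77 in the input. No test was run between these lists, and the difference was larger than the spread of the replicates.

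**Figure D2:**
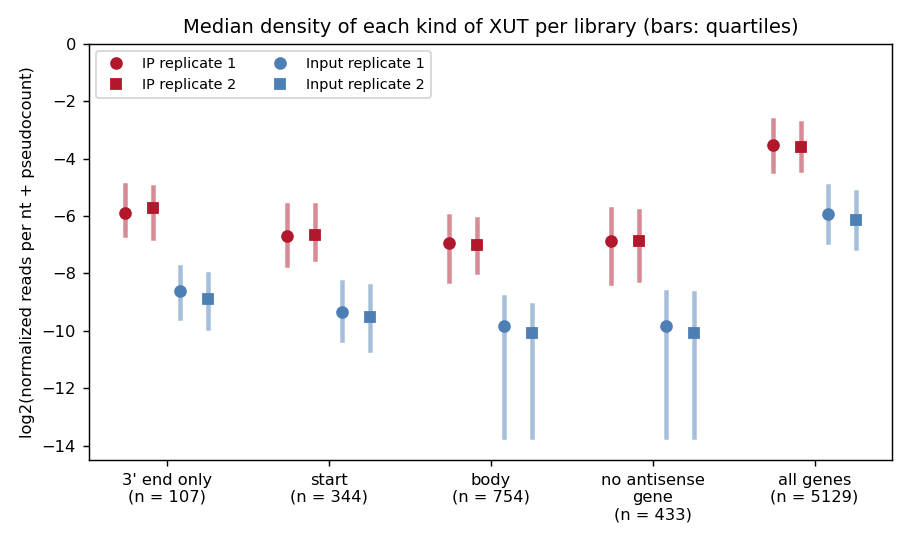
Median log2 density of each kind of XUT and of all genes in the 2 IP libraries (red) and the 2 input libraries (blue), with bars from the lower to the upper quartile. The XUTs opposite a 3′ end have the highest medians of the 4 kinds of XUT in all 4 libraries, and all lie below the genes.

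Within the 107, level went with annotation. The 65 that share an annotated ncRNA gene had median log2 densities of −5.43 and −5.39 in the IP and −8.25 and −8.41 in the input. The other 42 had −6.42 and −6.53 in the IP and −9.46 and −9.93 in the input. XUTs that covered 50% or more of the gene had −5.58 and −5.40 in the IP, against −6.11 and −6.21 for those that covered less. These splits are descriptions and their causes were not tested.

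XUT and paired gene rarely stood at the same level. The median log2 ratio of XUT over gene density was −1.83 in the IP and −2.27 in the input, against −3.0 in the IP and −3.84 in the input for other paired XUTs. The paired genes themselves had a median log2 density of −4.08 in the IP, against −4.06 for the genes of other XUTs, counted once per XUT. The XUT was denser than its gene in both IP libraries for 19 of 107 and in both inputs for 17. Across the 107 pairs, the levels of XUT and gene had Spearman's rho of −0.12 and −0.10 in the IP libraries and −0.15 and −0.15 in the inputs (Pearson's r −0.04, −0.07, −0.11 and −0.08). Across the 94 tandem cases, XUT and next gene had rho of 0.10 and 0.01 in the IP and −0.04 and −0.03 in the input (r 0.19, 0.05, −0.07 and −0.01). Pairs share a library and its depth, so these are descriptions.

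**Figure D3:**
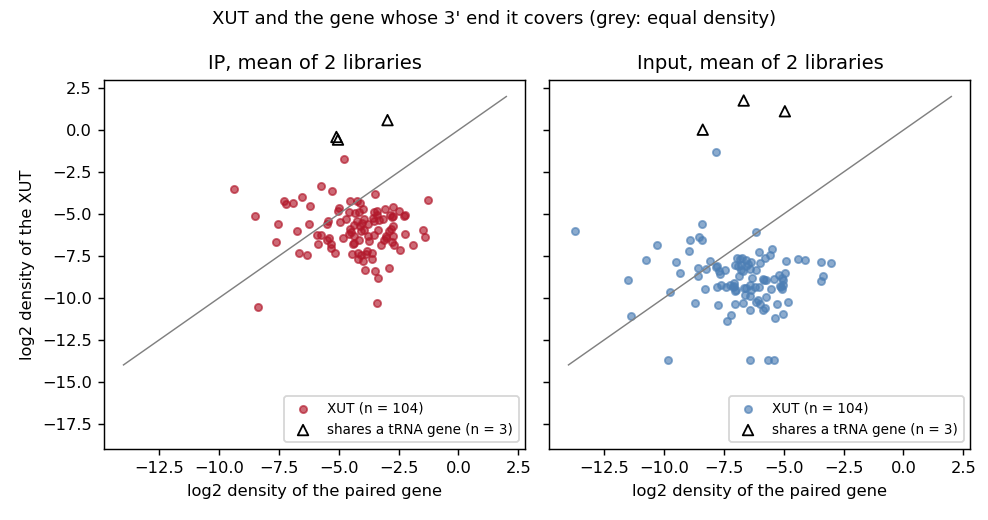
Log2 density of each XUT (vertical) against that of its paired gene (horizontal), in the IP (left) and input (right), means of 2 libraries. Points are 104 XUTs, XUT1069 among them, and triangles are the 3 that share a tRNA gene. Most points lie under the grey line of equal density, and the triangles stand above it.

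Of the 19 XUTs denser than their gene in both IP libraries, 4 are described first, of which XUT0383 and XUT0109 were picked out after their values were seen. *mug68*, whose name stands for meiotically upregulated gene, had 3 and 4 reads in the IP and none in the inputs. XUT0591, which covers 1427 nt of it and starts 73 nt from *nas6*, had 151 and 298 reads in the IP and 86 and 70 reads in the input. Its log2 ratio over the gene was 5.90 in the IP, the largest of the 107. *hop1*, which encodes a meiotic chromosome axis protein, had 10 and 20 reads in the IP and 2 and 1 in the input. XUT0383 opposite it had 48 and 79 reads in the IP and 14 and 10 in the input. *inv1*, the gene of the secreted invertase, had 13 and 47 reads in the IP and 21 and 12 in the input, and XUT0109 opposite it had 161 and 295 reads in the IP and 99 and 78 in the input. The log2 ratio of XUT0109 over *inv1* was 3.08 in the IP and 2.38 in the input. *ppk31*, a protein kinase gene, had 22 and 65 reads in the IP and 7 and 10 in the input. XUT1046, the longest overlap of all (3634 nt), had 176 and 390 reads in the IP and 112 and 79 in the input.

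XUT0394 was the longest of the 107 at 5308 nt (chromosome II, 3625989 to 3631296, − strand). It covers 2670 nt of *mbx2*, a MADS-box transcription factor gene, and starts inside the next gene, SPBP8B7.32. It had 511 and 1105 reads in the IP and 333 and 327 reads in the input. *mbx2* had 120 and 223 reads in the IP and 51 and 51 in the input, and XUT0394 was denser in all 4 libraries. XUT0527, which covers 98.4% of SPAC10F6.15, had 53 and 112 reads in the IP and 26 and 24 in the input, over a gene with 3 and 10 reads in the IP and 0 and 4 in the input. XUT0011, opposite SPCC1884.01, had 113 and 226 reads in the IP and 63 and 46 in the input. SPCC1884.01 had 19 and 41 reads in the IP and 21 and 10 in the input. XUT0513, which covers 90.7% of the succinate-semialdehyde dehydrogenase gene SPAC139.05, had 101 and 202 reads in the IP and 32 and 19 in the input, against 19 and 35 in the IP and 9 and 8 in the input for the gene.

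At the other end stood XUTs opposite the most transcribed paired genes. *met10*, which encodes a sulfite reductase subunit, had 1414 and 2538 reads in the IP and 1220 and 784 in the input. XUT0886 reaches 182 nt into it and had 15 and 29 reads in the IP and 7 and 9 in the input, a log2 ratio of −4.97 in the IP. XUT0755 reaches 95 nt into *lrs1*, a leucine-tRNA ligase gene, and had 18 and 56 reads in the IP and 17 and 17 in the input. *lrs1* had 1406 and 2665 reads in the IP and 1580 and 1130 in the input. The iron transport gene *fio1* and the allantoicase gene *dal2* are convergent neighbours and each has a XUT over its 3′ end. XUT0712, over *fio1*, had 9 and 21 reads in the IP and 9 and 4 in the input. XUT1540, over *dal2*, had 69 and 126 reads in the IP and 41 and 39 in the input and came close to the density of *dal2*, with a log2 ratio of −0.31 in the IP. SPAC6C3.02c, a CHCH domain protein gene, had the highest IP density of the 107 paired genes, with 374 and 640 reads in the IP and 261 and 181 in the input. XUT1421 over it had 101 and 106 reads in the IP and 18 and 17 in the input, a log2 ratio of −3.02 in the IP. The longest overlap without any same-strand annotation was that of XUT0365 with *cnd1*, a condensin gene (2935 nt), and it had only 12 and 31 reads in the IP and 7 and 7 in the input.

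One paired gene is the tagged one. XUT0905 (chromosome III, 1782136 to 1783078, + strand) covers the last 182 nt of *rpb3* and starts 7 nt from *cox12*. It had 29 and 73 reads in the IP and 14 and 13 in the input, and *rpb3* had 364 and 730 reads in the IP and 112 and 102 in the input. It was singled out for the tag. The study's strain list writes the allele as rpb3-flag::natR, so a resistance marker came with the tag. The part of the inserted tag and marker in these values was not tested.

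**Figure D4:**
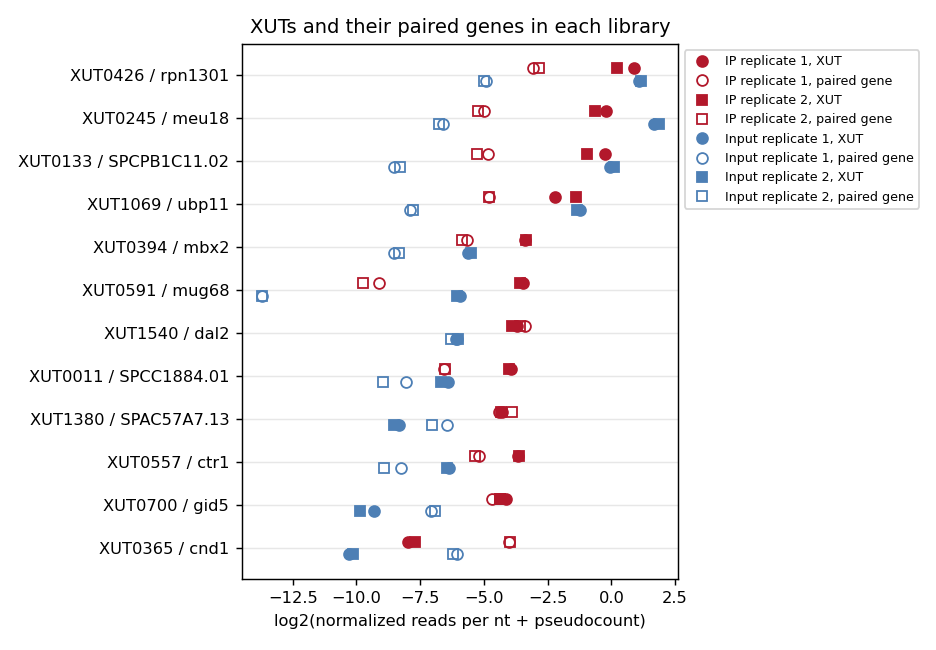
Log2 density (normalized reads per nt) of 12 XUTs (filled) and their paired genes (open) in IP replicates 1 and 2 (red circles and squares, upper of each pair) and input replicates 1 and 2 (blue, lower). XUT0426, XUT0245, XUT0133 and XUT1069 are as high or higher in the input, whereas the others are higher in the IP; *mug68* is at 0 in both inputs.

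IP and input were then compared for each feature with limma over all 4 libraries. On the deposited scale, 97 of the 106 XUTs tested were higher in the IP and 3 were lower, against 91.6% of all 8651 features higher and 1.43% lower (adjusted p of 0.05, Benjamini-Hochberg). All 107 paired genes were higher. The median log2 change was 2.57 for the XUTs and 2.41 for all features, and the deposited libraries have near-equal totals, of which tRNA genes take most in the inputs. After subtraction of the median gene of each library, 16 of 106 XUTs were higher in the IP than that gene and 4 were lower, against 9.21% of all features higher and 17.0% lower. For the other XUTs the counts were 76 higher and 46 lower of 1410. The paired genes gave 7 higher and 14 lower of 107. On the recovered reads, edgeR called 22 of 86 XUTs higher and 4 lower, against 15.5% and 19.2% of all features. Among other XUTs, edgeR called 129 of 667 (19.3%) higher and 22 lower. Their median log2 change in edgeR was 0.59, against 0.26 for the 86, the reverse order of the centred medians (−0.07 and 0.07). Median IP reads were 19 and 48 for the 107 and 4 and 9 for other XUTs. The edgeR filter asked for enough reads in 2 libraries, so a XUT could enter through the IP alone. At least 10 reads were found in both IP libraries for 78 of 107 and in both inputs for 39. The edgeR counts and medians of XUTs can thus be tilted towards higher in the IP. The parts of depth and of this filter in these counts were not tested.

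The 4 XUTs that were lower in the IP, relative to the median gene, were the 4 that share a tRNA or snoRNA gene. XUT0245, which covers 1656 nt of *meu18*, named for its meiotic expression, had 2022 and 3193 reads in the IP and 23368 and 23838 reads in the input. Its tRNA gene held 97.1% and 95.8% of those reads in the IP and 99.7% and 99.8% in the input, and 59 and 135 reads in the IP and 60 and 58 in the input lay outside it. Its centred log2 IP over input was −4.67 ± 0.18 (SE, n = 2 libraries a group, limma adjusted p = 6.66e-08). XUT0426 had 523 and 710 reads in the IP and 1905 and 1775 in the input, and 24 and 51 reads in the IP and 15 and 17 in the input lay outside its tRNA gene. XUT0133 had 183 and 240 reads in the IP and 666 and 660 in the input, all but 8 and 6 in the IP and 6 and 5 in the input within the tRNA gene. XUT1069, opposite *ubp11*, a ubiquitin hydrolase gene, had 53 and 196 reads in the IP and 331 and 269 in the input. Its centred log2 change was −3.01 ± 0.22 (SE), close to −3.05 for XUT0426 and −3.12 for XUT0133. The reads of XUT1069 within its snoRNA gene were not counted, so their part in this change was not tested.

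Among the 16 XUTs higher in the IP, the largest change was that of XUT0700, which covers 1041 nt of *gid5*, named for the GID ubiquitin ligase that degrades gluconeogenic enzymes in budding yeast. It had 60 and 108 reads in the IP and 5 and 3 in the input, a centred log2 change of 2.61 ± 0.35 (SE, limma adjusted p = 0.000361). *gid5* itself had 111 and 291 reads in the IP and 66 and 65 in the input. XUT1380, opposite the RNA-binding protein gene SPAC57A7.13, had 115 and 238 reads in the IP and 22 and 17 in the input, with a centred change of 1.57 ± 0.19. XUT1306, opposite the replication gene *sld3* and 137 nt from the ribosomal protein gene *rps901*, had 62 and 132 reads in the IP and 14 and 5 in the input. Its centred change was 1.81 ± 0.36. XUT1259, opposite *dbp8*, had 33 and 93 reads in the IP and 6 and 2 in the input. XUT0883, opposite the flocculin gene *pfl4*, had 30 and 54 reads in the IP and 5 and 2 in the input, and XUT0772, opposite the vesicle coat gene *sec16*, had 38 and 53 in the IP and 7 and 3 in the input. In each of these the IP counts lay above the input counts in both replicates, as did those of the median gene (172 and 356 reads in the IP, 102 and 78 in the input). XUT0394, XUT0591 and XUT1540 are called higher on the deposited scale, and their centred changes were −0.28, −0.02 and −0.26, which limma did not call.

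Apart from the pseudocount, which matters at few reads, the ratio of XUT over paired gene within a library does not depend on scale. For the 98 XUTs with 10 or more reads in XUT and gene, its log2 change between IP and input had a median of 0.35, against 0.63 over all 841 pairs tested. limma called none of the 98 higher or lower in the IP at an adjusted p of 0.05, against 1.55% of all pairs higher and 0.238% lower (1.78% in either direction), and 15 were higher and 5 lower at an unadjusted p of 0.05. This fit recovered 0 of 36 simulated 4-fold changes among 892 pairs, so its lack of calls says little. A second form of the fit, with the variance trend taken over the reads of the less covered feature, was added after the results of the first were seen, and it recovered 12 of 36. It called XUT0700 over *gid5* higher in the IP (log2 2.85 ± 0.43, limma adjusted p = 0.035) and XUT0133, XUT0245, XUT1069 and XUT0426 lower (−3.97, −3.76, −3.55 and −2.55), against 1.31% of all pairs higher and 0.713% lower (2.02% in either direction). Without input replicate 1 the first form called 7 higher and 3 lower, and without input replicate 2 it called 4 higher. With 1 input library left, the spread comes from the 2 IP libraries and the lone library is assumed to vary like them. With the replicate number as a block, 0 of all 841 pairs were called. The first form gave XUT0700 an adjusted p of 0.0637. Of the increases not called by either form, those with the smallest p in the first were XUT0883 over *pfl4* (2.20), XUT1547 over *tsn1*, the translin gene (1.98), XUT0309 over SPBC24C6.03, a proline-tRNA ligase gene (2.46), and XUT0772 over *sec16* (2.3). The decrease not called by either form with the smallest p in the first was XUT0120 over SPCC737.04 (−1.36). XUT0120 shares no tRNA or snoRNA gene and had 6 and 14 reads in the IP and 7 and 3 in the input.

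A gene on the strand of the XUT that ends just before it could supply reads by read-through. Such a gene lay within 500 nt upstream, or overlapping, for 11 of the 107 (10.3%), against 13.3% of other XUTs. The XUT was below this gene in both IP libraries for 6 of the 11 and above it in both for 3. Those above were XUT0245, XUT1069 and XUT0557, and the first 2 carry the tRNA and snoRNA genes described above. XUT0557, opposite *ctr1*, shares 766 nt with the upstream gene SPAC110.05. It had 209 and 451 reads in the IP and 102 and 85 in the input, against 18 and 28 in the IP and 9 and 4 in the input for that gene, a log2 density ratio of 3.32 in the IP and 3.41 in the input. XUT0194 lies 169 nt beyond *utp15*, a ribosome biogenesis gene, and had 32 and 70 reads in the IP and 17 and 11 in the input. *utp15* had 360 and 776 reads in the IP and 201 and 145 in the input, and the ratio was −3.04 in the IP and −3.17 in the input. XUT0477 lies 328 nt beyond SPAC13C5.05c and had a ratio of −1.29 in the IP and −1.87 in the input. XUT0922 lies 322 nt beyond SPCC18.10 and had a ratio of −1.78 in the IP and −2.76 in the input. XUT0500 lies 9 nt beyond *atp10* and stood level with it, at −0.12 in the IP and 0.31 in the input.

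**Figure D5:**
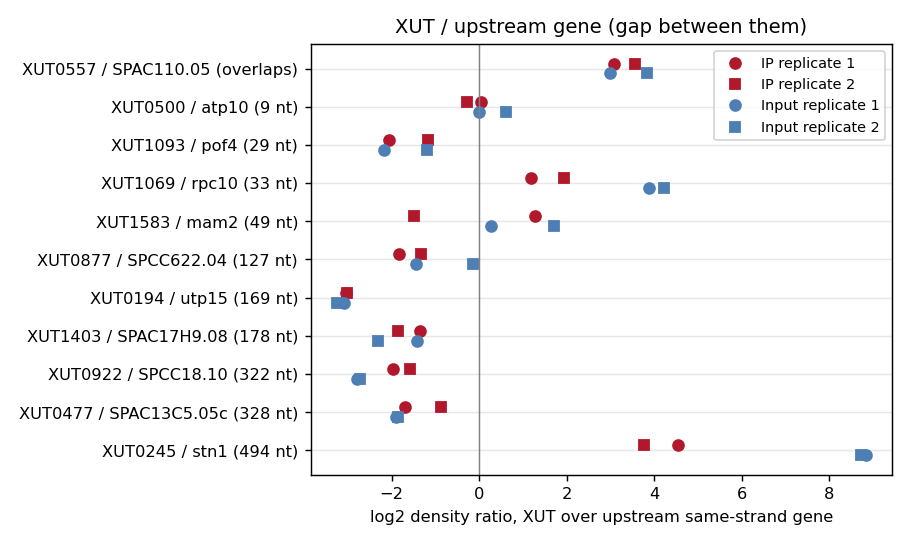
Log2 density ratio of the XUT over the same-strand gene upstream of it, for the 11 XUTs with such a gene within 500 nt, ordered by the gap (nt), in the IP (red) and input (blue) libraries. XUT0245 and XUT1069, which share a tRNA and a snoRNA gene, have higher ratios in the input than in the IP, and most others lie below 0.

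The ratio to the upstream gene was tested for 10 of the 11. limma called none higher in the IP and 2 lower, XUT0245 (−4.63 ± 0.33, adjusted p = 0.00719) and XUT1069 (−2.49 ± 0.39, adjusted p = 0.0198), against 15.1% of all 185 such XUTs higher and 2.7% lower. At an unadjusted p of 0.05, 0 were higher in this fit and 1 in the second form, whose adjusted calls were the same 2 against 20.0% of all higher. With the replicate number as a block, 0 were higher and 2 lower, against 30.8% and 3.78% of all. The remaining 8 ranged between −0.79 for XUT0877 and 0.97 for XUT0922 with no call. The median of the 10 was −0.01, against 1.20 over all 185. Without IP replicate 1 or IP replicate 2, 1 of the 2 calls was left, in fits where the lone IP library is assumed to vary like the 2 input libraries.

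The study sorted genes with an antisense XUT by whether their nascent transcription was lowered in the *exo2* mutant (class 1) or not (class 3), on libraries that include these, so the classes are not independent of the data. Of the 107 paired genes, 18 (16.8%) belong to class 1 and 89 to class 3. Among other paired XUTs, 178 of 1098 (16.2%) had a class 1 gene, and there a gene opposite several XUTs counts once for each. XUTs opposite class 1 genes had median log2 densities of −5.58 and −5.45 in the IP and −8.30 and −8.58 in the input, against −5.97 and −5.72 in the IP and −8.75 and −8.92 in the input for those opposite class 3 genes. The densest XUT opposite a class 1 gene, after XUT1069, was XUT1380, which covers 98.4% of SPAC57A7.13 and had a log2 ratio over it of −0.18 in the IP and −1.69 in the input. XUT0173, opposite the formaldehyde dehydrogenase gene *fmd2*, had 58 and 100 reads in the IP and 18 and 14 in the input, and a ratio of 0.19 in the IP and −0.30 in the input.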

How the data were processed

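NET-Seq reads (single-end, per the labels) were mapped uniquely by the authors with Bowtie and 2 mismatches to ASM294v2. The counting tool and the basis of the scaling factor are not given in the sources used here. For IP replicate 1 the authors deposited whole read counts per feature. For the other libraries they deposited a signal, reads multiplied by 1 factor per library, with densities per nt. Division by the smallest value gave whole reads for 100% of values (tolerance 0.01), which edgeR (4.0.16, TMM, filterByExpr) used. 4 pooled columns were not used.

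limma (3.58.1, R 4.3.3, with trend, two-sided) was fitted on log2(normalized reads + 0.318) for the 8651 non-coding-sequence features above 0 in 2 or more libraries, and on differences of log2(density + pseudocount) for ratios. The pseudocount of 0.318 shrinks fold changes where reads are few. The density pseudocount is the smallest positive density, so 0 reads in 1 feature of a pair can give an extreme ratio. The lowest log2 ratio of XUT over gene was −10.3 in IP replicate 1, where 2 of the 107 XUTs had 0 reads. It was −5.93 in IP replicate 2, where no XUT of the 107 lacked reads. The planned ratio fit used limma's default trend. A trend over the reads of the less covered feature was added after the real and simulated results of the default were known. On simulated counts, limma recovered 183 of 200 4-fold changes over features and edgeR 198 of 200 (13 false calls). The simulation set each feature to its mean over IP and input in all 4 libraries, with a fixed small spread. Only features above a low mean were changed. The input of most of these XUTs lies below that mean, with medians of 9 and 8 reads in input replicates 1 and 2. The recoveries, ratio fits included, can thus overstate what the fits find among them.

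The members, lists and named XUTs were chosen with earlier results of these data known. XUTs were named by highest IP density, highest ratio over paired or upstream gene, smallest p of the ratio in each direction, longest overlap, largest share of the gene covered, most transcribed paired gene and densest opposite class 1. XUTs named beyond these (XUT0109, XUT0383, XUT0905, XUT1259, XUT1306 and XUT1385) were chosen after their values were seen. The labels say that IP and input come from the same biological samples, so replicate numbers pair the libraries. Their deviations correlated at r = 0.152 over 4644 genes. Of 5119 coding sequences, 5113 were intact at the table's coordinates in the RefSeq genome (ASM294v3), from which sequence and the snoRNA gene were taken. The Wilson intervals cover the sampling error of a share only. Values after ± are SEs from limma or, for the levels, the SD of the 2 replicates.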

Additional observations from a re-analysis of the deposited data

How the results depend on the processing

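Which XUTs and genes exceed input depends on the scale. XUTs called higher in the IP fell to 16 when centred on the median gene and 22 with edgeR, from 97, and paired genes to 7 and 8, from 107, with 14 and 11 of the paired genes called lower. XUTs called lower were 1 with no filter, 1 without limma's trend, 1 at an overlap of 100 nt or more and 0 without the XUTs that share a tRNA gene, against 3. Changes of opposite sign were seen for XUT0394 (−0.28 centred, −0.24 edgeR), XUT1540 (−0.26, −0.21), XUT0591 (−0.023 centred) and XUT0557 over its upstream gene (0.42 with a pseudocount 10 times larger, against −0.10, and −0.52 to 0.32 leaving out a library). The cause was not tested.

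The excess over other XUTs in the IP was 0.63 with 10 or more reads summed, 1.47 for means, 2.16 for normalized reads, and 0.98 to 1.16 leaving out a replicate. In the input it was 1.37 and 0.79 with a smaller and larger pseudocount, 0.77 with 10 or more reads, 1.63 for means, 1.90 for normalized reads, 1.39 without XUTs that share a gene, 1.25 without those that share a tRNA gene, and 1.08 to 1.12 leaving out a replicate.

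For the ratio to the paired gene, calls higher and lower were 1 and 4 with the larger pseudocount, with 30 or more reads, and with the added trend, and 0 and 2 without a trend. Leaving out a library gave 0 to 7 higher and 0 to 3 lower. Wherever a library is left out of a fit, the lone library of its group is assumed to vary like the other group. For the ratio to the upstream gene, calls lower were 1 within 200 nt, 1 without tRNA-sharing XUTs and 1 to 2 leaving out a library. With the replicate block, XUTs called higher and lower in the IP were 98 and 4, paired genes 107 and 0, and ratios to the paired gene 0 and 0 and to the upstream gene 0 and 2, so no count among these XUTs or their genes moved by over 1.5 times. Over all XUTs, the block called 0 ratios to the paired gene, against 15 without it, and 57 ratios to the upstream gene higher, against 28. Depth limits single XUTs, most of which had under 10 reads in an input.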
